A study of Mus musculus with 3 samples.

Results

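The nuclear-encoded subunits of the mitochondrial respiratory chain and ATP synthase were followed in the dental papilla of the mouse, the mesenchyme of the tooth germ that gives rise to the pulp and to the dentin-forming odontoblasts. The members were all probe sets with a single gene symbol in the platform annotation that named an Nduf a, b, c, s or v subunit, an Sdh a to d subunit, or a Uqcr, Cox4 to Cox8 or Atp5 gene. They came to 164 of the 45101 probe sets of the array and to 81 of the 18194 genes with a probe set of their own. By symbol, 35 genes with 73 probe sets belonged to complex I, 4 with 9 to complex II, 8 with 16 to complex III, 17 with 35 to complex IV and 17 with 31 to complex V, and 48 of the 81 genes had more than 1 probe set. Papillae of the mandibular first molar of ICR mice, an outbred stock, were freed from the tooth germ by enzyme treatment at embryonic day 16 (E16), at embryonic day 18 (E18) and on postnatal day 3 (P3), and the labels name no genetic change or treatment in any group. Each stage was 1 array of RNA pooled from over 20 papillae, so every difference between stages below is a difference between single arrays, with no p-value, error or interval.

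The 5 complexes work in the inner mitochondrial membrane. Complexes I and II pass electrons from NADH and succinate to ubiquinone, complex III passes them on to cytochrome c, complex IV hands them to oxygen, and complex V (ATP synthase) uses the proton gradient that complexes I, III and IV build to make ATP. Mitochondrial DNA encodes the catalytic centre of complex IV and the membrane core of complex I, so nuclear and mitochondrial gene expression have to be matched, and in cultured mammalian cells the transcription factors NRF1, GABP (an ETS factor) and YY1 bind upstream of many of the nuclear genes. In tooth development the papilla changes over these stages from a dividing mesenchyme to a tissue whose outer cells secrete dentin matrix.

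The start regions of the members were read from the RefSeq promoter table (build GRCm38.p6), which held 71 promoters of 66 of the 81 genes among 32851 promoters of 300 bases, 250 before the start and 50 after. A letter-by-letter search on both strands for GCGC, any base, TGCGC (NRF1), for CCGGAAG (ETS factors such as GABP) and for AAGATGGC (YY1) found at least 1 of the 3 in 37 of the 71, a share of 52.1%, against 14.7% of all promoters and 26.4% of the promoters of genes measured at E18 or E16. NRF1 letters were in 22.5% of the member promoters (9.37% of those of measured genes), ETS letters in 23.9% (16.2%) and YY1 letters in 12.7% (4.14%), and in no member promoter did the letters of 2 different motifs overlap. NRF1 letters read from both strands at the same place are marked as 1 site. Among members higher by 2-fold or more at E18 than at E16, 17 of 29 promoters (58.6%) held at least 1 motif, against 20 of 42 (47.6%) of the other member promoters. By motif the shares were 24.1% against 21.4% for NRF1, 31.0% against 19.0% for ETS and 13.8% against 11.9% for YY1. NRF1 letters were thus about as frequent in both groups. The 5 regions below are printed because their genes carry the patterns described below: Cox6a1, Atp5k and Atp5g2 were among the members highest at E18, while Sdha and Atp5b were lowest at P3. Each is the 250 bases before the start on the strand of the gene, with NRF1 and ETS letters in capitals (on the other strand they read GCGCA, any base, GCGC for NRF1 and CTTCCGG for ETS). The regions are chr5:115348959-115349208 for Cox6a1 (minus strand, with NRF1 and ETS letters), chr5:108434400-108434649 for Atp5k (minus, NRF1), chr15:102671048-102671297 for Atp5g2 (minus, NRF1), chr13:74350241-74350490 for Sdha (minus, NRF1) and chr10:128083057-128083306 for Atp5b (plus, none of the 3).
Cox6a1: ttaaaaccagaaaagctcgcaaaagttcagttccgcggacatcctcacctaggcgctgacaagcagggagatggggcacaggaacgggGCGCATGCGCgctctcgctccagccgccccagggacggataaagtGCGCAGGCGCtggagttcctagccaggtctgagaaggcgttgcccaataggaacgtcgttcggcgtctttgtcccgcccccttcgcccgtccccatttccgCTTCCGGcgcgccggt
Atp5k: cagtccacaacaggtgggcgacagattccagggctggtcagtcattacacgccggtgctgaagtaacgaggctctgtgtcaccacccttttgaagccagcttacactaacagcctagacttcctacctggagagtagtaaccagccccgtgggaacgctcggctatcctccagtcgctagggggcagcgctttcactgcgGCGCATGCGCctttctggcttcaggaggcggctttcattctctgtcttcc
Atp5g2: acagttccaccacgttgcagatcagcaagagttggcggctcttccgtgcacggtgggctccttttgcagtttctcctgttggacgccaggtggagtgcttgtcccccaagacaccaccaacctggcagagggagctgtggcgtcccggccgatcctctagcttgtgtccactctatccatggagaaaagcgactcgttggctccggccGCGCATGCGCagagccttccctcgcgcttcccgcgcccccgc
Sdha: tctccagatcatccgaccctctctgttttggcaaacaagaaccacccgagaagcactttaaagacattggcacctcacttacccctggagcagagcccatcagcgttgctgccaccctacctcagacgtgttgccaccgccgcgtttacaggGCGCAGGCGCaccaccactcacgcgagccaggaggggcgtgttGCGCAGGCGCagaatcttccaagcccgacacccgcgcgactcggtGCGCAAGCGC
Atp5b: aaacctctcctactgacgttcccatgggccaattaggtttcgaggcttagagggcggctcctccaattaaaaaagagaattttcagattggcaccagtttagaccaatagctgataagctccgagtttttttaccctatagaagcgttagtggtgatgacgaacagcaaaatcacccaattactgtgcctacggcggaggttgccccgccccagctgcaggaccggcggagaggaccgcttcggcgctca
Sdha, low at P3, held NRF1 letters as Cox6a1 and Atp5k did, and Atp5b held none of the 3 motifs in this window. Atp5k also held ETS letters in the 50 bases after the start, which are counted in the shares above but not printed.

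The deposited values are ratios: each probe set was divided by the middle of its own 3 values, or, for 4347 dim probe sets, by a constant. A value of 1 therefore marks the middle stage of that probe set, and levels of different genes cannot be compared. Signal steps recovered from the ratios gave array medians of 82.0 at E16, 81.8 at E18 and 82.3 at P3, and the floor of detection used here is their pooled median, 82.0. Each gene is given by its brightest probe set, and where 1 of the 2 arrays of a comparison was below the floor the fold is a bound, written "at least". For bright probe sets the recovered signal is only a lower limit, and for most members it lies where solutions by chance also occur, so which probe set of a gene is brightest is uncertain. Of the 81 members, 71 reached the floor on all 3 arrays, 7 on some, and 3 (Cox7a1, Cox7b2 and Cox8b) on none. The pooled SD of the log2 difference between probe sets of the same member was 0.46 for E18 against E16, 0.50 for P3 against E18 and 0.48 for P3 against E16, the only measure of error used here. The controls for RNA quality differed as well: the ratio of the 3' to the 5' actin control probe sets was 3.87 times its E16 value at E18 and 2.46 times at P3, and that for Gapdh was 1.42 times at E18 and 0.355 times at P3. The median of the 18 hybridisation spike-in probe sets, which are added with the labelled RNA, was 2.17 times its E16 value at E18 and 1.04 times at P3. The part of these differences in the results below was not tested.

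Most respiratory chain subunits were highest at E18. Of the 71 members measured on all 3 arrays, 55 (77.5%) had their highest value at E18, against 34.9% of the 9867 genes measured in the same way. Another 11 members (15.5%) were highest at E16, where 42.9% of all genes were, and 5 (7.04%) at P3, where 22.2% were. The lowest value lay at E16 for 38 members and at P3 for 28. By complex, E18 was the highest stage for 27 of 31 genes of complex I, 2 of 4 of complex II, 5 of 8 of complex III, 9 of 12 of complex IV and 12 of 16 of complex V.

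**Figure D1:**
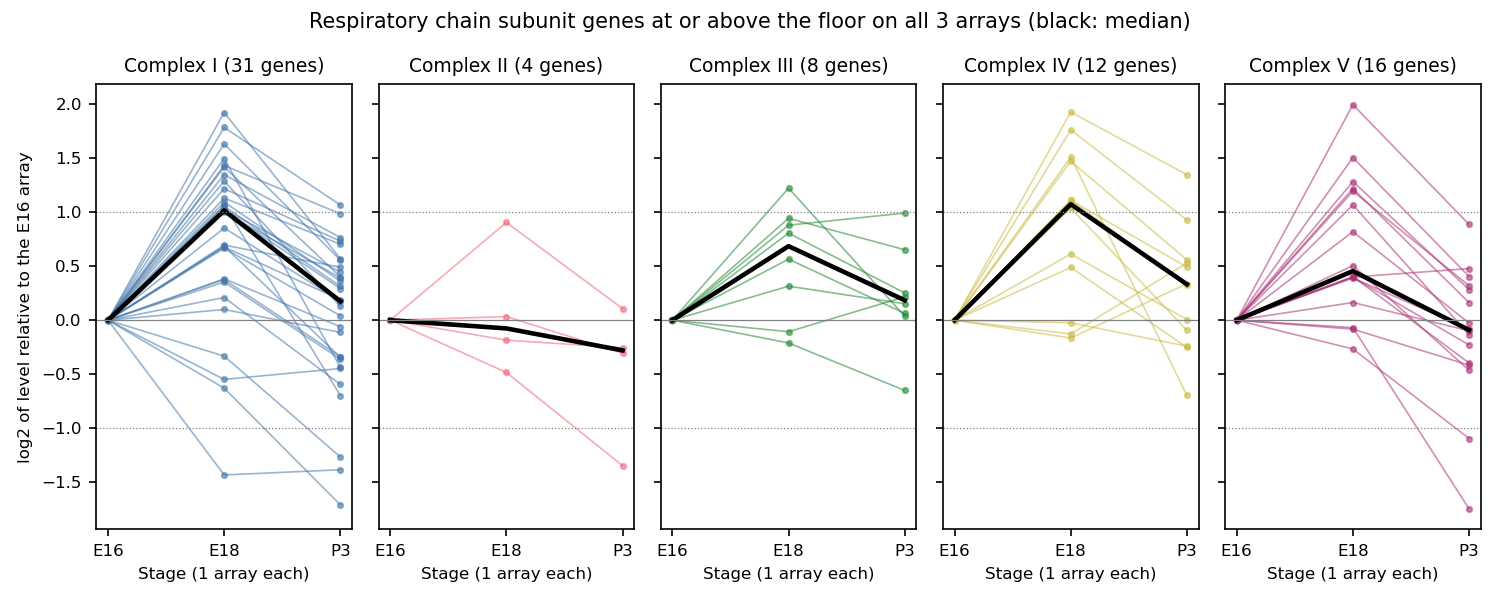
Log2 difference of each member measured on all 3 arrays from its E16 value (y axis) at E16, E18 and P3 (x axis), 1 panel per complex; thin lines are genes and the thick line is the median of the genes in the panel. In complexes I, III, IV and V most lines peak at E18, whereas the 4 lines of complex II spread around 0 at E18.

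At E18 against E16, 32 of 77 measured members (41.6%) were higher by 2-fold or more and 1 was lower by 2-fold or more. Over all 12032 genes measured in this comparison, 8.1% were higher by 2-fold or more and 8.13% lower by 2-fold or more. The median log2 difference of the members was 0.82, against -0.04 over all genes. The median member was 2.01-fold higher in complex I (17 of 34 past 2-fold), 1.61-fold in complex III (1 of 8), 1.77-fold in complex IV (7 of 14) and 1.42-fold in complex V (7 of 17), whereas complex II, with 0 of 4 past 2-fold, had a median log2 difference of -0.08. The count depended on the kind of probe set: among the 56 members with a probe set of no _a, _s or _x suffix (suffixes for probe sets that can match several transcripts or genes), 14 (25%) were higher by 2-fold or more against 7.12% of all genes, with a median log2 difference of 0.39, and the complex IV median turned to -0.06. With the median over the probe sets of each gene, 22 of the 32 remained past 2-fold, and Cox5a, Ndufa5, Ndufb11, Ndufb2, Ndufb5, Ndufb6, Ndufb7, Ndufs4, Ndufs8 and Uqcrc2 did not. At a threshold of 1.5-fold, 45 members were higher and 2 lower, against 17.7% and 19.9% of all genes.

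**Figure D2:**
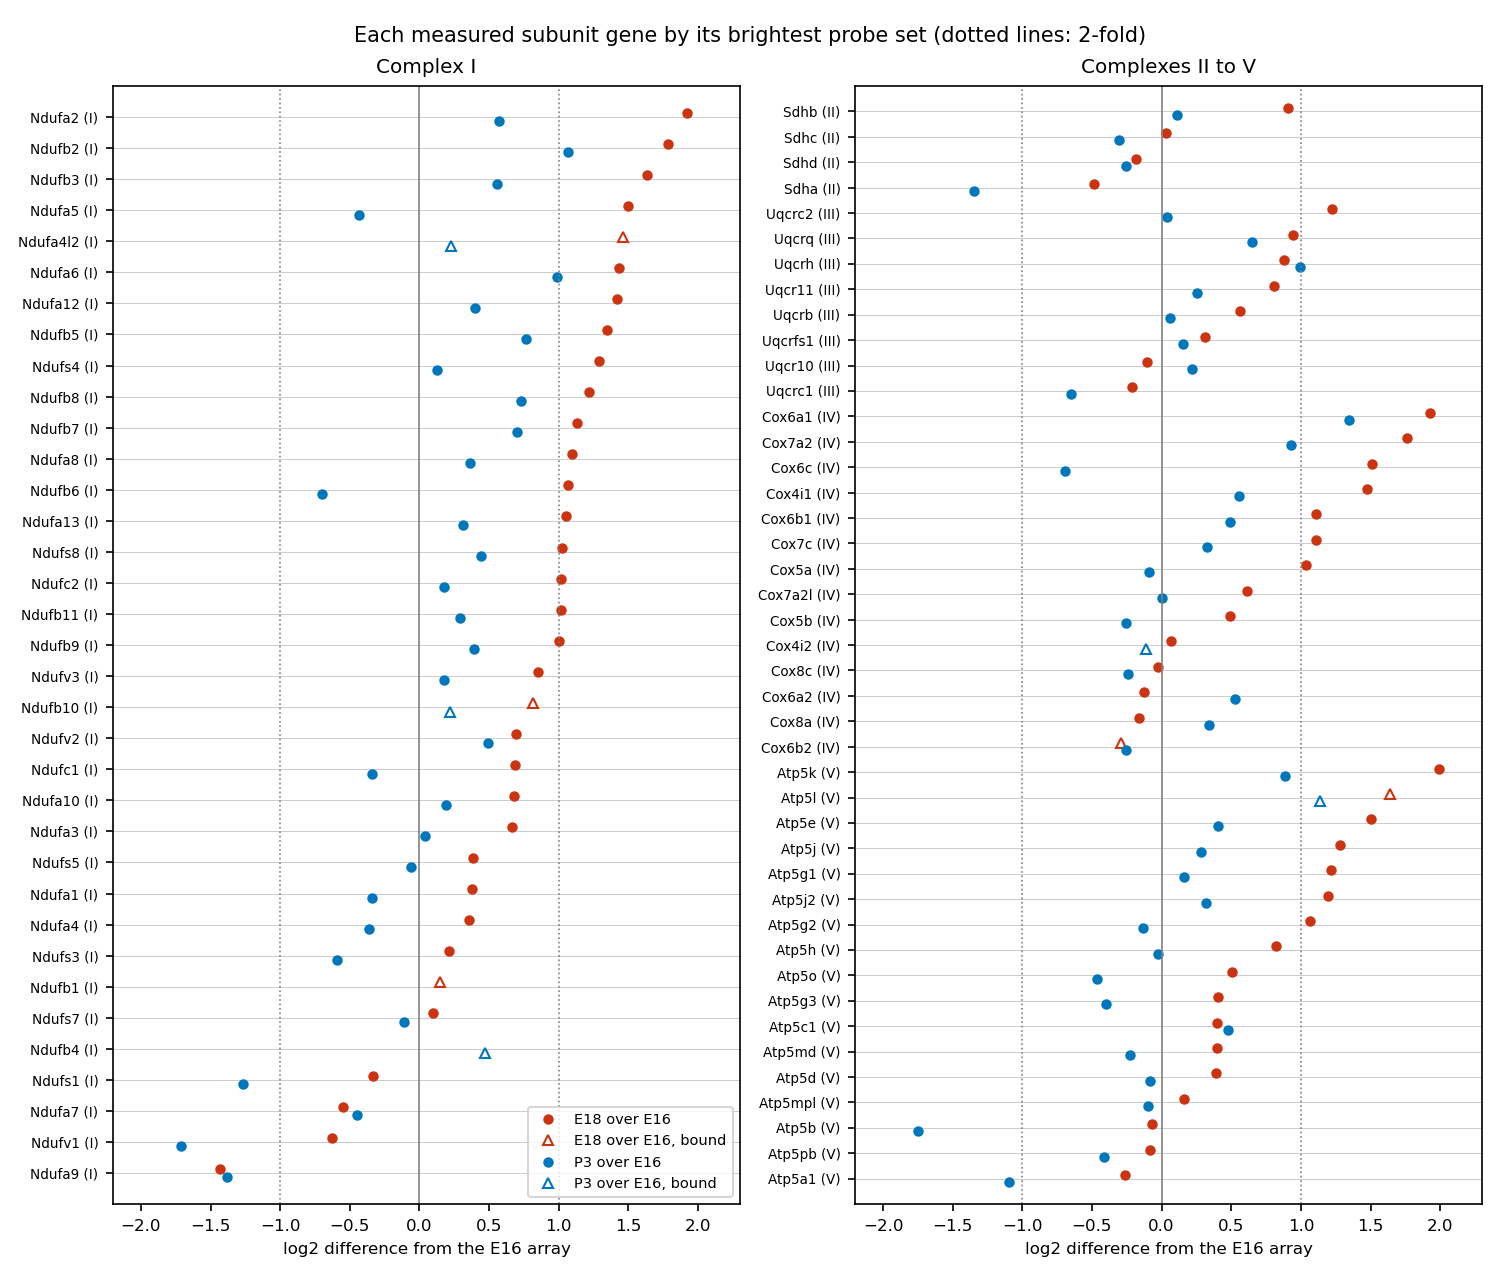
Log2 difference of every measured member from the E16 array (x axis) at E18 (red) and at P3 (blue), with genes listed by complex and by their E18 value; open triangles are bounds, and dotted lines mark 2-fold. Most red points of complex I, III, IV and V genes lie right of the blue ones, and Ndufv1, Ndufs1, Ndufa9, Sdha, Atp5a1 and Atp5b have blue points left of the lower 2-fold line.

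In complex I most genes past 2-fold at E18 were accessory subunits, which surround the catalytic core and are needed to assemble and steady it. Of the 26 measured accessory genes, 15 were higher by 2-fold or more at E18 than at E16, with a median of 2.05-fold, while 1 of the 6 core genes on the array was, with a median of 1.11-fold. This division by role, like those of complexes IV and V below, was made after the values were seen. Ndufa2, an accessory subunit with a thioredoxin fold near the NADH site, had ratios of 0.674 at E16, 2.55 at E18 and 1 at P3 and was 3.79-fold higher at E18 than at E16. Ndufb2, of the membrane arm, had 0.478 at E16, 1.65 at E18 and 1 at P3, which is 3.44-fold at E18 against E16, although its other probe sets gave 1.87-fold and 1.24-fold. Both genes were lowest at E16. Ndufb3, also of the membrane arm, stood at 0.680 at E16, 2.11 at E18 and 1 at P3 (3.10-fold). The accessory subunit Ndufa5 had values of 1 at E16, 2.82 at E18 and 0.739 at P3, so that it was 2.82-fold higher at E18 than at E16, against 1.31-fold by its second probe set. Ndufs4, whose loss in mice and people causes a Leigh-like brain disease, had 0.916 at E16, 2.23 at E18 and 1 at P3 (2.44-fold). Of its 3 other probe sets, 2 were less than 1.5-fold higher at E18 than at E16, and a dim one was at least 1.04-fold lower. By the brightest probe sets of Ndufa5 and Ndufs4, the E18 array alone was high, and E16 and P3 lay within 1.5-fold of each other. The other accessory genes past 2-fold ranged between Ndufa6 at 2.70-fold and Ndufb11 at 2.02-fold, with Ndufa12, Ndufb5, Ndufb8, Ndufb7, Ndufa8, Ndufb6, Ndufa13 (also known as GRIM-19) and Ndufc2 in between. Ndufb9 lay just under 2-fold at 1.998-fold. By its other probe sets Ndufc2 had larger log2 differences at E18 against E16, 3.32 and 1.68, than the 1.02 of its brightest. Those of Ndufa12, Ndufb5, Ndufb6, Ndufb7 and Ndufb11 gave smaller ones than the brightest, between 1.33 (Ndufa12) and 0.23 (Ndufb5).

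The core subunits of complex I hold the flavin and the iron-sulfur clusters, and 2 of the 6 were highest at E16. Ndufv1, which binds the flavin that takes electrons from NADH, had 1.55 at E16, 1 at E18 and 0.473 at P3. Ndufs1, the largest iron-sulfur subunit, had 1.26 at E16, 1 at E18 and 0.524 at P3. In both genes E16 was the highest array and P3 the lowest. Ndufs3, of the arm that leads to ubiquinone, was at 1 at E16, 1.16 at E18 and 0.662 at P3, and Ndufs7, which carries the last iron-sulfur cluster before ubiquinone, was at 1 at E16, 1.07 at E18 and 0.925 at P3, although its other probe set was 1.58-fold lower at E18 against E16. Ndufv2, the partner of Ndufv1, was 1.62-fold higher at E18 than at E16. Ndufs8, another iron-sulfur subunit, was the 1 core gene past 2-fold, at 2.03-fold, but its other 5 probe sets ran between 0.984-fold and 3.06-fold. Of the accessory genes, Ndufa9, which binds a nucleotide beside the ubiquinone arm, went the other way, with 2.61 at E16, 0.967 at E18 and 1 at P3: it was 2.70-fold lower at E18 than at E16, the 1 member past 2-fold in that direction. Ndufa7 was also highest at E16, at 1.36 at E16, 0.932 at E18 and 1 at P3. Ndufa4, long counted in complex I and now known to be bound to complex IV, was 1.28-fold higher at E18 than at E16, and its paralogue Ndufa4l2, which hypoxia induces in other tissues, was at least 2.76-fold higher, with an E16 value below the floor.

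Complex II was the 1 complex with no gene past 2-fold at E18, on only 4 genes, and complex III had 1 of 8. Complex II also has no mitochondrially encoded subunit, but any link of this to its values was not tested. Sdha, the flavoprotein that oxidises succinate, had 1.40 at E16, 1 at E18 and 0.550 at P3 and was highest at E16. Sdhb, the iron-sulfur subunit, had 0.928 at E16, 1.74 at E18 and 1 at P3, which puts it 1.87-fold higher at E18 than at E16. The membrane anchor Sdhc had 1 at E16, 1.02 at E18 and 0.810 at P3. Its other probe set had the opposite sign in each comparison, at least 1.70-fold lower at E18 against E16 and at least 1.90-fold higher at P3 against E18. Its partner in the membrane, Sdhd, had 1.14 at E16, 1 at E18 and 0.953 at P3, and the other Sdhd probe set was 1.17-fold higher at E18 against E16. By their brightest probe sets the 4 partners of this complex differed among themselves, with Sdhb alone more than 1.5-fold higher at E18 than at E16 and Sdha alone past 2-fold lower at P3 than at E16.

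In complex III the core protein Uqcrc2 was highest at E18, with 0.974 at E16, 2.27 at E18 and 1 at P3. It was 2.33-fold higher at E18 than at E16 by its brightest probe set and 1.28-fold by the other. Its partner Uqcrc1 had 1.16 at E16, 1 at E18 and 0.737 at P3 and so no peak at E18. Uqcrfs1, the Rieske iron-sulfur protein, differed little, with 0.8998 at E16, 1.12 at E18 and 1 at P3. The small subunits Uqcrq, Uqcr11 and Uqcrb were 1.92-, 1.75- and 1.48-fold higher at E18 than at E16, but 2 dimmer probe sets of Uqcrq were 2.05-fold and at least 1.69-fold lower. Uqcrh, the hinge protein beside cytochrome c1, had its low value at E16, with 0.544 at E16, 1 at E18 and 1.08 at P3, and Uqcr10 was at 1 at E16, 0.929 at E18 and 1.16 at P3.

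By brightest probe sets, complex IV divided by isoform, but the groups also differed in signal and probe set kind. Of the 9 ubiquitous nuclear subunits, 7 were higher by 2-fold or more at E18 than at E16, with a median of 2.16-fold. None of the 4 measured tissue isoforms was, with a median log2 difference of -0.08. Those 4 were read without a suffix, and Cox4i2, Cox6a2 and Cox6b2 lay near the floor. Without a suffix, ubiquitous subunits had log2 differences of -0.39 (Cox5a), -0.09 (Cox5b), -0.16 (Cox8a), 0.95 (Cox6b1), 1.09 (Cox6c) and 1.76 (Cox7a2). The part of probe set kind in the split was not tested. Cox6a1, the widely expressed form of a subunit that adjusts enzyme activity, had 0.393 at E16, 1.49 at E18 and 1 at P3, which is 3.80-fold at E18 against E16 (4.79-fold by its other probe set). Cox7a2, a small membrane subunit of most tissues, had 0.526 at E16, 1.78 at E18 and 1 at P3 (3.39-fold, and 2.97-fold by the other). In both genes E16 was the low array. Cox6c, a small membrane subunit, had 1 at E16, 2.85 at E18 and 0.617 at P3 (2.85-fold). Cox4i1, the main form of the largest nuclear subunit, had 0.679 at E16, 1.88 at E18 and 1 at P3 (2.77-fold). Cox6c was lowest at P3 and Cox4i1 at E16. Cox6b1, which faces cytochrome c, and Cox7c were each 2.16-fold higher, and Cox5a was 2.05-fold higher but 1.31-fold lower by a probe set without a suffix. Cox5b was 1.40-fold higher, Cox8a was 1.12-fold lower, and Cox7a2l, which joins complex III and IV into supercomplexes, was 1.53-fold higher.

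The isoforms of complex IV known from other tissues were dim or below 2-fold at E18. Cox4i2, the lung form, had 1 at E16, 1.05 at E18 and 0.882 at P3, just around the floor. Cox6a2, of heart and skeletal muscle, had 1 at E16, 0.915 at E18 and 1.44 at P3, and the testis form Cox6b2 had 1.19 at E16, 0.436 at E18 and 1 at P3, with E18 below the floor. Cox8c, another testis form, had 1.02 at E16, 1 at E18 and 0.860 at P3 by its brightest probe set, while a dimmer one gave 3.19-fold for P3 over E16. Cox7a1 and Cox8b, of muscle and brown fat, and Cox7b2, of testis, were below the floor on every array. Each ubiquitous partner of these isoforms on the array (Cox4i1, Cox6a1, Cox6b1, Cox7a2 and Cox8a) was above the floor on all 3 arrays.

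In complex V, 5 of the 7 genes past 2-fold at E18 were small Fo or c ring subunits, which lie in the membrane. All 5 small subunits of the Fo part were higher at E18 than at E16, 3 of them past 2-fold, with a median of 2.29-fold, against 1 of 5 F1 subunits, with a median of 1.31-fold. Atp5k (subunit e, which helps ATP synthase pair into dimers) had 0.541 at E16, 2.16 at E18 and 1 at P3. It was 3.98-fold higher at E18 than at E16, and its other probe sets gave 3.72-fold and 4.45-fold. Atp5l (subunit g) was at least 3.12-fold higher, since E16 was below the floor, and Atp5j2 (subunit f) was 2.29-fold higher. The rotating c ring has 3 genes that make the same mature protein. Of these, Atp5g1 had 0.893 at E16, 2.08 at E18 and 1 at P3 (2.33-fold at E18 against E16). Atp5g2 had 1 at E16, 2.09 at E18 and 0.911 at P3 (2.09-fold). Atp5g3 had 1 at E16, 1.32 at E18 and 0.760 at P3 (1.32-fold). All 3 were highest at E18. In the stalk that holds F1 still, Atp5j (factor 6) was 2.43-fold higher at E18, Atp5h (subunit d) 1.76-fold and Atp5o (the oligomycin sensitivity protein) 1.42-fold, and Atp5pb (subunit b) was 1.06-fold lower. Of the F1 subunits, Atp5b (beta, the catalytic one) had 1.05 at E16, 1 at E18 and 0.313 at P3. Atp5a1 (alpha) had 1.20 at E16, 1 at E18 and 0.563 at P3. The small Atp5e (epsilon) had 0.756 at E16, 2.14 at E18 and 1 at P3. E16 and E18 were thus level for Atp5b, with P3 far below both, whereas Atp5e peaked at E18. Atp5c1 (gamma) and Atp5d (delta) were 1.32- and 1.31-fold higher at E18 than at E16.

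At P3 most subunits were lower than at E18. Of 78 measured members, 17 (21.8%) were lower by 2-fold or more at P3 than at E18, while 0 were higher by as much, against 11.8% and 4.07% of 12119 genes. In all, 69 of the 78 were lower by any amount, and the median log2 difference was -0.65, against -0.15 over all genes. The median fold of P3 over E18 was 0.610 in complex I (9 of 35 past 2-fold), 0.675 in complex II (0 of 4), 0.777 in complex III (1 of 8), 0.655 in complex IV (2 of 14) and 0.557 in complex V (5 of 17). Quantile normalization forces the 3 arrays to 1 distribution and here used the recovered signals, which are lower limits for bright probe sets. Under it the members' median was -0.27 against 0.03 over all genes, and the complex III median turned to 0.012. In that case 5 members (6.41%) were past 2-fold lower, against 7.20% of all genes, so the members' share no longer lay above that of all genes. With probe sets of no suffix, 7 of 57 members (12.3%) were, against 9.80% of all genes. At 1.5-fold, 45 members were lower and 1 was higher, against 25.7% and 11.2% of all genes.

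The member farthest below its E18 value at P3 was Cox6c, at 4.61-fold lower (1.78-fold by the other probe set). Ndufa5 was 3.82-fold lower (1.17-fold by the other probe set) and Ndufb6, of the membrane arm, 3.39-fold lower (2.88-fold by the other). Atp5b was 3.20-fold lower by its 1 probe set. All 4 were lowest at P3, and Atp5b alone of them was not highest at E18. The other members past 2-fold were Ndufa2, Ndufa4l2, Ndufs4, Ndufv1, Ndufb3, Ndufc1 and Ndufa12 of complex I, Uqcrc2, Cox5a, and Atp5g2, Atp5k, Atp5e and Atp5g1 of complex V, between 2.55-fold for Ndufa2 and 2.02-fold for Ndufa12. For Atp5k, the brightest probe set gave 2.16-fold lower, another 3.33-fold lower and the one without a suffix 1.01-fold. For Ndufc1 the brightest probe set gave 2.04-fold lower and the one without a suffix 1.21-fold higher. The members highest at P3 against E18 were Cox6a2 (1.58-fold), Cox8a (1.42-fold), Ndufb4 (at least 1.39-fold) and Uqcr10 (1.25-fold), none of them past 2-fold.

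Between the outer stages, most subunits differed by less than 2-fold. At P3 against E16, 3 of 77 measured members were higher by 2-fold or more and 6 lower by 2-fold or more, where 6.57% and 15.6% of 12193 genes were, so neither count stood above the share of all genes. Quantile normalization turned this split to 11 higher (14.3%) and 4 lower (5.19%), and that of all genes to 10.1% higher and 10.5% lower. At 1.5-fold, 11 members were higher and 10 lower, against 13.5% and 30% of all genes. The median log2 difference of the members was 0.15, against -0.17 over all genes. With quantile normalization those medians were 0.41 and 0.02, so the members' median lay 0.32 above that of all genes in the first case and 0.39 in the second. The median fold of P3 over E16 was 1.15 in complex I, 1.14 in complex III, 1.12 in complex IV, 0.824 in complex II and 0.944 in complex V, and those of complexes II and V passed to the other side of 1 under quantile normalization, at log2 differences of 0.0038 and 0.27.

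The 3 members higher by 2-fold or more at P3 than at E16 were Cox6a1 (2.54-fold, 1.92-fold by its other probe set), Ndufb2 (2.09-fold, 1.98-fold and 1.33-fold by the others) and Atp5l (at least 2.19-fold). Uqcrh and Ndufa6 lay just under, at 1.99- and 1.98-fold. All of these are small subunits outside the catalytic centres. The 6 members lower by 2-fold or more were 2 of the 6 core subunits of complex I, main subunits of complexes II and V, and the accessory Ndufa9. This grouping by role was also made after the values were seen, on counts that did not stand above the share of all genes. They were Atp5b (3.35-fold), Ndufv1 (3.27-fold, with 3.54-fold and 3.90-fold by its others), Ndufa9 (2.61-fold), Sdha (2.54-fold), Ndufs1 (2.40-fold) and Atp5a1 (2.14-fold, with 1.75-fold and 1.62-fold by its others). A second probe set of Sdha was 2.21-fold lower and another, dim one was 1.05-fold higher. Ndufs1 and Atp5a1 no longer passed 2-fold under quantile normalization. The lowest members of the other complexes were Uqcrc1 in complex III, 1.57-fold lower, and Cox6c in complex IV, 1.62-fold lower, and the highest in complex II was Sdhb, 1.08-fold higher. In bulk RNA of this kind, fewer cells of a type and less RNA per cell cannot be told apart.

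Probe sets of the same gene mostly pointed the same way, with a wide spread in size. Of 64 other probe sets that could be set beside the brightest one at E18 against E16, 51 had the same sign, as did 41 of 64 at P3 against E16 and 48 of 62 at P3 against E18. Of the 33 members past 2-fold at E18 against E16, 18 had another measured probe set; in 15 of these every other one had the same sign, and in 5 every other one was also past 2-fold. Of the 17 past 2-fold at P3 against E18, 11 had another; in 8 the sign was shared by all, and in 1 all were past 2-fold. Of the 9 at P3 against E16, 5 had another; in 4 the sign was shared, and in 1, Ndufv1, all passed 2-fold. No member had probe sets past 2-fold in opposite directions.

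**Figure D3:**
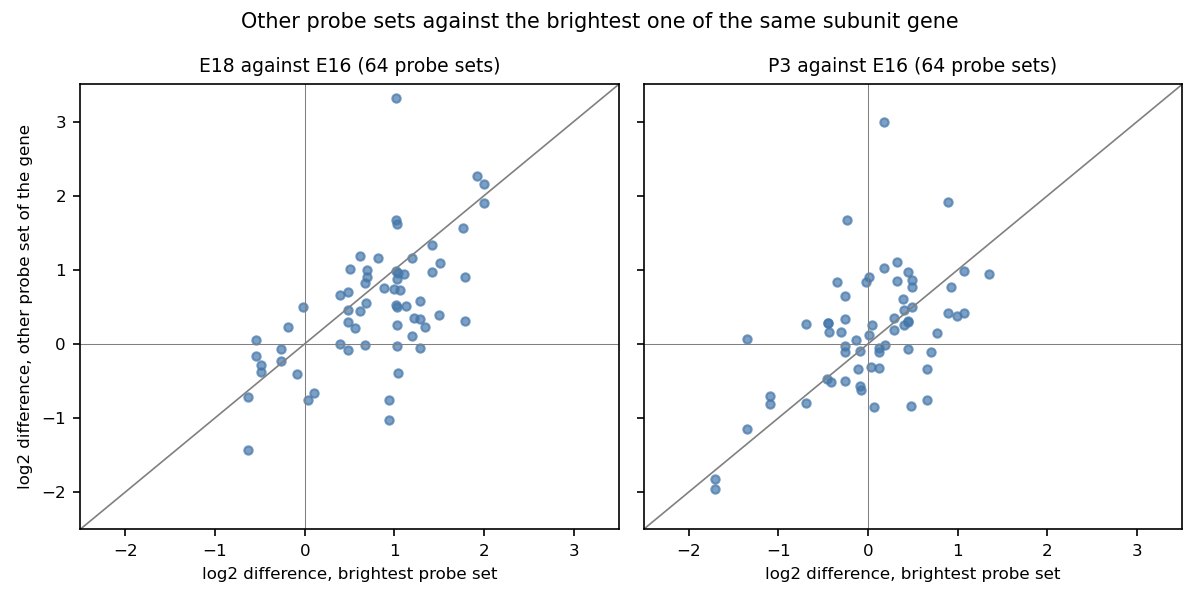
Log2 difference by each other probe set of a member (y axis) against that by the brightest probe set of the same gene (x axis), for E18 against E16 (left) and P3 against E16 (right), 64 points each; the diagonal marks equal values. On the left 51 points share the sign of the brightest probe set, and on the right 41 do.

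In the lists of genes around the respiratory chain, a smaller share passed 2-fold at E18. None of the 14 measured genes of electron carriers and ubiquinone synthesis passed 2-fold at E18 against E16, with a median log2 difference of 0.07. This list holds Cyc1, for cytochrome c1, a complex III subunit that the symbols used for the members left out. It was 1.06-fold higher at E18 than at E16. Cycs, which encodes cytochrome c, was 1.32-fold higher at E18 than at E16 and 2.18-fold lower at P3 than at E18. At P3 against E16, 0 of the 15 measured were higher and 3 lower past 2-fold: Coq3 and Coq7, enzymes of ubiquinone synthesis, were 2.67- and 2.59-fold lower, and Etfa, of the flavoprotein that brings electrons from fatty acids, 2.14-fold lower. Of 41 measured assembly factors, 6 were past 2-fold higher and 1 past 2-fold lower at E18 against E16, and their median log2 difference was 0.18. Uqcc2, for complex III, was 3.47-fold higher, Ndufaf2, for complex I, 3.12-fold and Cox17, which carries copper to complex IV, 2.93-fold. At P3 against E16, 3 of 40 assembly factors (7.5%) were higher and 7 (17.5%) lower past 2-fold. Over all genes these shares were 6.57% and 15.6%, and the share lower among the electron carriers was 20%. Sdhaf4, a complex II assembly factor, was 3.39-fold higher, whereas Acad9, a complex I assembly factor, was 4.55-fold lower.

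The citric acid cycle, which feeds the chain with NADH and succinate, had 1 gene higher and 2 lower of 17 at E18 against E16, with a median log2 difference of -0.04. The higher one was Mdh2, malate dehydrogenase (2.08-fold), and the lower ones were Idh2, isocitrate dehydrogenase (3.86-fold), and Ogdh, of the oxoglutarate dehydrogenase complex (2.63-fold). At P3 against E16, 0 were higher and 4 (23.5%) lower, where 15.6% of all genes were lower. The median log2 difference was -0.71, against -0.17 over all genes. The lowest genes were Idh2 (7.66-fold lower) and Dld (2.67-fold lower). Carriers and import genes had 2 higher and 0 lower of 18 at E18 against E16 (Tomm20, a receptor of the outer membrane, at 2.28-fold, and Timm17a at 2.13-fold) and 0 higher and 5 lower at P3 against E16, the lowest being Hspa9, the import motor chaperone, 3.99-fold lower. The regulators of mitochondrial biogenesis had 2 higher and 2 lower of 22 at E18 against E16 and 1 higher and 2 lower of 21 at P3 against E16. Among them, Nrf1, whose product binds the NRF1 letters searched for above, was 3.74-fold lower at E18 and 2.98-fold lower at P3, each against E16. Tfb1m, a mitochondrial ribosomal RNA methyltransferase, was 2.299-fold higher at E18 than at E16, and Ppargc1b, a coactivator of this programme, was 2.38-fold higher at P3 than at E16. Gabpb1, a subunit of GABP, was at least 2.44-fold lower at P3 against E16 and at least 2.35-fold lower at P3 against E18. None of the 5 measured genes of superoxide handling and uncoupling passed 2-fold in any comparison. At P3 against E18 no gene of these 6 lists was past 2-fold higher. Past 2-fold lower were 4 of 14 electron carriers (28.6%), 6 of 41 assembly factors (14.6%) and 1 of 17 citric acid cycle genes (5.88%). So were 4 of 22 regulators (18.2%) and 4 of 18 carriers and import genes (22.2%), against 11.8% of all genes. At P3 against E16 the share lower was 27.8% for carriers and import genes and 9.52% for regulators, against 15.6%. Whether these lists differed from all genes was not tested.

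**Figure D4:**
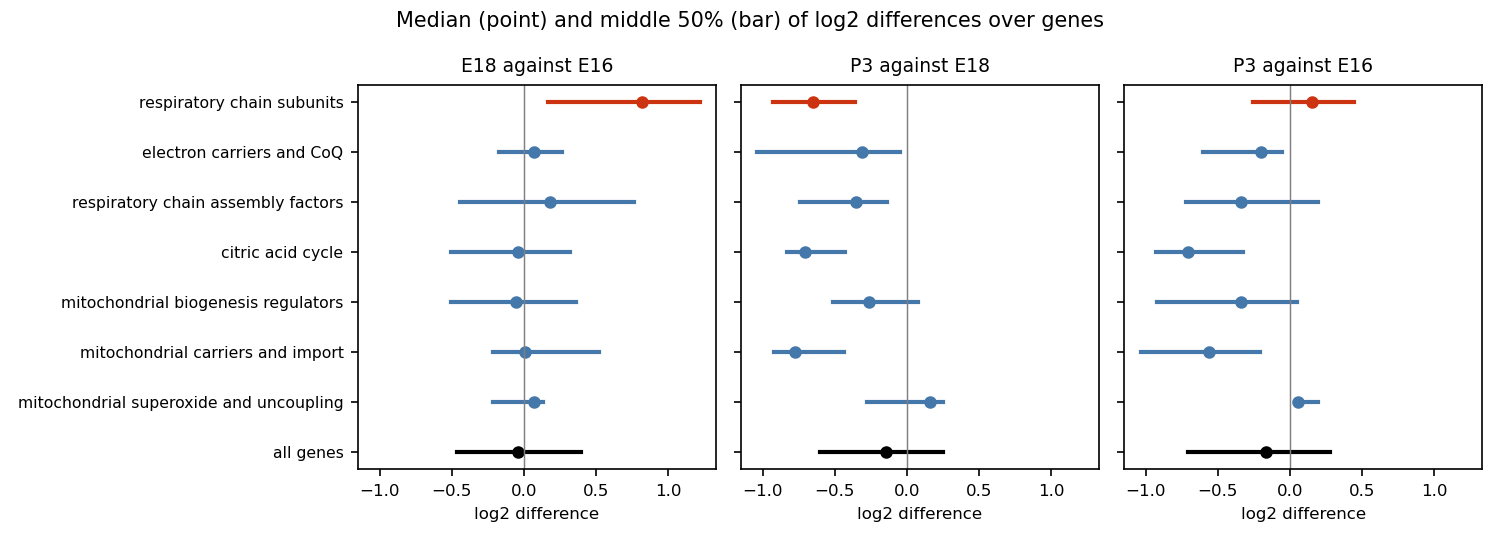
Median log2 difference (points) and the range between the quartiles (lines) of the respiratory chain subunits, the related mitochondrial gene lists and all genes, in the 3 comparisons of stages. At E18 against E16 the subunits have a median of 0.82 and the assembly factors, the next list, 0.18.

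Markers of other cell types moved between the arrays as well. Of 13 dental epithelium markers on the array, 12 were measured at E18 against E16 and 11 of them were higher by 2-fold or more, among them Epcam (2.24-fold) and Krt14 (2.78-fold), and at P3 against E18 9 of 13 were lower by 2-fold or more and 3 higher, namely the enamel genes Amelx, Enam and Mmp20. Their summed recovered signal was 7997 at E16, 24312 at E18 and 15166 at P3, in units that are lower limits for bright probe sets. This sum was highest on the same array as most subunits, and the part of epithelial cells in the subunits' values was not tested. Of the dividing-cell markers, 0 of 13 passed 2-fold at E18 against E16, but 12 were lower by any amount. Their median log2 difference was -0.08 and the lowest -0.997. At P3, 12 of 13 were lower by 2-fold or more against each of the other stages. Their sums were 20576 at E16, 17784 at E18 and 4621 at P3, and their part in the low P3 values was not tested. Macrophage and leukocyte markers summed to 2592, 4853 and 8819 at E16, E18 and P3, and 6 of 13 were higher by 2-fold or more at P3 than at E16. Erythroid markers summed to 1778, 412 and 345, with 3 of 4 lower by 2-fold or more at P3 than at E16. Muscle markers had none past 2-fold at E18 or P3. At E16, E18 and P3, 4, 2 and 4 of 14 were at or above the floor, with sums of 799, 593 and 599. Myod1 and Ttn reached it on all 3 arrays, Des at E16 and P3, Actc1 at E16 and Ckm at P3. The others, among them Acta1, Actn2, Tnnc2 and Myh8, were below it on all 3. Of 6 brown fat markers, 1, 2 and 0 reached the floor at those stages, and Ucp1 and Cidea did so on none. The mesenchyme and odontoblast markers that define the papilla reached the floor in 9 of 13 at E16, 13 at E18 and 13 at P3, with sums of 9654, 14586 and 36894. These markers did not move together: 5 were higher and 6 lower by 2-fold or more at E18 against E16. At P3 against E16 the counts were 6 higher and 6 lower, and at P3 against E18 they were 4 and 2.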

How the data were processed

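RNA from pooled papillae was labelled with biotin by a 2-cycle method, per the labels' protocols, and hybridised to 1 array per stage. The submitters' processing notes name GCOS; scaling settings were not given in the sources used here. The deposited values are ratios: 90.4% of the probe sets were divided by the middle of their own 3 values. Whole-step signals were recovered from these ratios after the files were seen (the smallest solution, so a lower limit for bright probe sets). They were used for the floor, the choice of the brightest probe set and the summed marker levels. Folds are quotients of the deposited ratios where both arrays reached the floor. Bounds, and all folds under quantile normalization, came from the recovered signals. The design had foreseen signals. Values below the floor of 82.0 were set to it. With no replicates, counts past 2-fold and medians stand beside those of all genes, and no replicate error can be given. Members and lists were chosen with earlier results of these data known. Every member may be named. Other genes are those past 2-fold or outermost in their list at P3 against E16. Cyc1 and the muscle and brown fat markers were named after their values were seen. Python 3.11.15, numpy 2.4.6 and pandas 2.3.3 were used, and the calculation was tested on simulated data. The alternatives were median scaling, quantile normalization, no floor, a doubled floor, other probe set rules and a 1.5-fold threshold.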

Additional observations from a re-analysis of the deposited data

How the results depend on the processing

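Each stage was 1 array, so no replicate could be left out. No paired analysis was possible because there is 1 sample per stage. The counts of members past 2-fold were within 1.5 times the reported ones in 32 of 48 comparisons with an alternative. In the setting with every probe set, the counts and shares are of probe sets, not genes. At E18 against E16 the count of 32 higher was 14 with probe sets of no suffix (25%, against 7.12% of all genes). The count of 1 lower was 3 with every probe set (2.13%, against 8.02% of all) and 3 with no floor (3.70% against 12.0%). It was 3 with probe sets of no suffix (5.36% against 9.36%) and 2 at 1.5-fold (2.60% against 19.9%). At P3 against E16 the count of 3 higher was 8 with every probe set (5.67%, against 6.20% of all) and 5 with no floor (6.17% against 11.6%). It was 11 with quantile normalization (14.3% against 10.1%) and 11 at 1.5-fold (14.3% against 13.5%). The count of 6 lower was 10 at 1.5-fold (13.0% against 30.0%). At P3 against E18 the count of 0 higher was 1 with every probe set (0.714%, against 3.86% of all). It was 2 with no floor (2.47% against 9.90%) and 1 at 1.5-fold (1.28% against 11.2%). The count of 17 lower was 7 with probe sets of no suffix (12.3%, against 9.80% of all genes). It was 5 with quantile normalization (6.41% against 7.20%) and 45 at 1.5-fold (57.7% against 25.7%). With probe sets of no suffix, the log2 difference turned to 0.021 for Atp5k and 0.28 for Ndufc1 at P3 against E18, to -0.39 for Cox5a and -0.024 for Ndufs8 at E18 against E16, and the complex IV median to -0.056 at E18 against E16. With quantile normalization the complex II and V medians turned to 0.0038 and 0.27 at P3 against E16, and the complex III median to 0.012 at P3 against E18. The cause was not tested; fewer genes have a probe set of no suffix. The medians over all members kept their direction under every alternative run.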
